A study of Mus musculus with 4 samples.

Results

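Open chromatin was described around the 2 microRNA clusters that mouse embryonic stem cells are best known for, miR-290 and miR-302. The clusters were represented by 5 listed microRNA genes, Mir291a, Mir294 and Mir295 of miR-290 and Mir302a and Mir367 of miR-302, out of 1228 microRNA genes in a RefSeq gene table of GRCm38.p6. Every peak within 30 kb of a listed gene was taken, which gave 26 of 208211 merged peak regions for miR-290 and 10 for miR-302. ATAC-seq, in which a transposase inserts adapters into accessible DNA, was done on wt and on Hox-/- mouse embryonic stem (mES) cells, with 2 libraries of each genotype and 1 deposited peak list per library. All cells, wt and Hox-/- alike, were grown in 2i LIF DMEM with 10% serum, LIF, 3 µM of the GSK-3 inhibitor CHIR99021 and 1 µM of the MEK inhibitor PD0325901, and per the series title the Hox-/- cells are without any Hox function. The 39 genes of the HoxA, HoxB, HoxC and HoxD clusters checked the genotype label: 183 and 188 peaks fell in their spans in the wt libraries, 6 and 4 in the Hox-/- libraries. Where 4 values are listed, they stand for wt replicate 1, wt replicate 2, Hox-/- replicate 1 and Hox-/- replicate 2, in that order. Nothing in the labels says whether the 2 libraries of a genotype came from separate cultures or clones, so the spread between them may be technical. Medium with both inhibitors and LIF favours the naive state, and no primed cells are among the samples, so both clusters are described in the same cells.

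Mature microRNAs are cut from hairpins in a longer transcript and pair through their seed, the bases near the 5′ end, with messenger RNAs that are then repressed. The miR-290 cluster is the most abundant microRNA family of naive mouse embryonic stem cells, and the DNA upstream of it is a well studied stem cell super-enhancer. The miR-302 cluster, which includes miR-367, rises when cells leave the naive state for the primed, epiblast-like state. Members of both clusters share a seed that promotes the G1 to S transition of the cell cycle.

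The table of RefSeq mature microRNAs (GRCm38.p6) matched all 14 genes of the clusters, with 26 mature sequences, miR-292a-3p and miR-302a-3p not among them. The sequences below carry what the clusters share and where they differ, with the seed, bases 2 to 8 from the 5′ end, in capitals. Of the 1738 mature sequences that the table does hold, 5 had the seed AAGUGCU, 3 of them from miR-290 and 2 from miR-302, and none from elsewhere.
miR-291a-3p: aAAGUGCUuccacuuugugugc
miR-294-3p: aAAGUGCUucccuuuugugugu
miR-295-3p: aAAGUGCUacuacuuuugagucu
miR-302b-3p: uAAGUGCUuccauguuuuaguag
miR-302d-3p: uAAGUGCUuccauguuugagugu
Mir302a carries the same 7 letters once, from base 45 of its 69-base hairpin (chr3:127545496-127545564, + strand), where they are in capitals.
Mir302a hairpin: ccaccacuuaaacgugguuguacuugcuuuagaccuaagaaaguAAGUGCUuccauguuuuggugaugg
The 5 further 3p arms shown last are from the same loci and have other seeds in the table. Mir302c carries AAGUGCU in its hairpin too, but its 3p arm in the table begins with the first of those letters, so bases 2 to 8 read differently. The seed of miR-367-3p recurs in 6 mature entries outside the clusters, those of miR-25-3p, miR-32-5p, miR-363-3p, miR-92a-3p and miR-92b-3p.
miR-290a-3p: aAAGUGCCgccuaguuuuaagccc
miR-291b-3p: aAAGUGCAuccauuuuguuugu
miR-293-3p: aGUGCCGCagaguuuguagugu
miR-302c-3p: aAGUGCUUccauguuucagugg
miR-367-3p: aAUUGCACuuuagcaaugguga

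The miR-290 genes lie at chr7:3218626-3220841, a span of 2216 bp with 9 microRNA genes. Of these, Mir290b and Mir292b are annotated on the − strand and the rest on the + strand, so upstream here means lower coordinates. The cluster overlaps the long noncoding RNA gene D7Ertd143e (chr7:3218784-3221015) and the protein-coding gene Nlrp12 (chr7:3218643-3249771, − strand), an innate immune regulator. The miR-302 genes lie at chr3:127545228-127545807, a span of 580 bp with 5 microRNA genes on the + strand. They fall inside the span of Larp7 (chr3:127536714-127553349, − strand), which binds the 7SK RNA, and inside the long noncoding RNA gene Gm51018 (chr3:127545089-127546903, + strand). The only other gene of that window is Zgrf1 (chr3:127553396-127618023), a DNA helicase gene that starts next to Larp7. Of the listed genes, Mir291a lies at chr7:3218919-3219000, Mir294 at chr7:3220641-3220724, Mir295 at chr7:3220773-3220841, Mir302a at chr3:127545496-127545564 and Mir367 at chr3:127545733-127545807. Exons and introns were not analysed here.

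The miR-290 window, of 61923 bp, held far more peaks than the miR-302 window, of 60312 bp, in every library. Each line of a deposited list is counted as a peak, and some intervals hold several lines with different summits. The miR-290 window had 26 and 27 peaks in the wt libraries and 28 in both Hox-/- libraries. Near miR-302 there were 9 and 11 peaks in the wt replicates, and 10 and 7 in the Hox-/- replicates. The ranges of the clusters did not overlap. Peaks covered 10034, 10668, 10208 and 10566 bp of the miR-290 window, which is 16.2% to 17.2% of the window. They covered 3917 and 3934 bp near miR-302 in wt, and 3867 and 3167 bp in Hox-/-, or 5.25% to 6.52%. Within libraries, miR-290 exceeded miR-302 by 18.0 peaks on average (16 to 21, 4 of 4 libraries) and by 6650 bp (6120 to 7400 bp, 4 of 4), each with p = 0.125 in an exact two-sided sign-flip permutation test, the smallest p that 4 libraries allow.

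**Figure D1:**
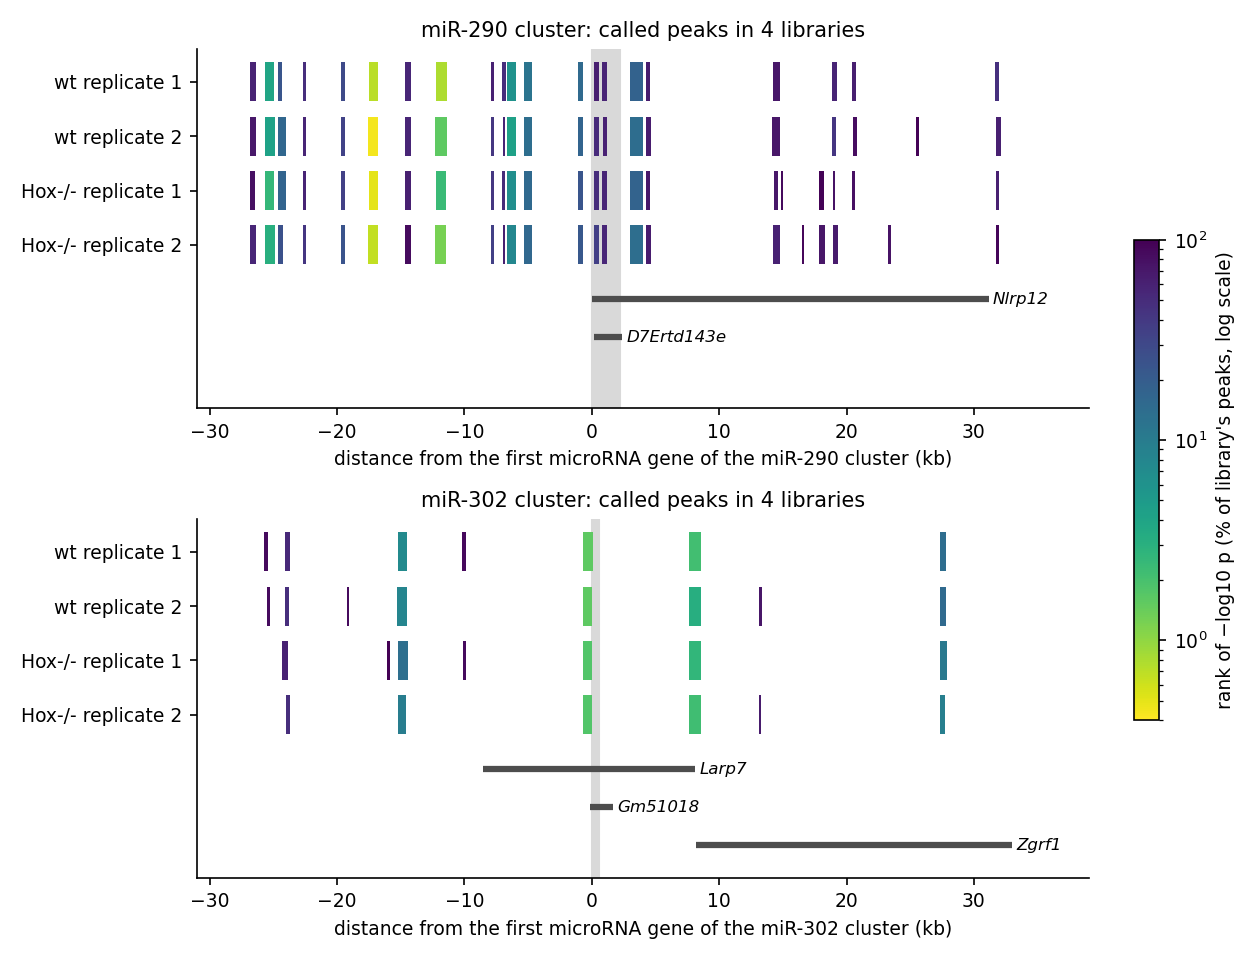
Peaks within 30 kb of the miR-290 (top) and miR-302 (bottom) genes in each library, by distance in kb from the first microRNA gene of the cluster, coloured by the rank of their −log10 p in the library (log scale, yellow strongest). Grey bands are the clusters and dark lines the other genes of each window. The miR-290 peaks crowd upstream of the cluster and just past it, while miR-302 has 1 strong peak at its own start.

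Single peaks were not wider at miR-290. The median width of its peak intervals was 365, 408, 373 and 412 bp, against 486, 416.5, 511 and 494.5 bp at miR-302. Over all intervals of the libraries the median was 414, 409, 402 and 398 bp. The difference in covered length between the clusters therefore lay in how many peaks there were. The widest interval of the miR-290 window, downstream of Mir295, was 1043, 1043, 1026 and 1030 bp with 3 summits in each library. The widest of the miR-302 window was 969, 966, 937 and 942 bp, at the facing ends of Larp7 and Zgrf1, where both genes start.

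**Figure D2:**
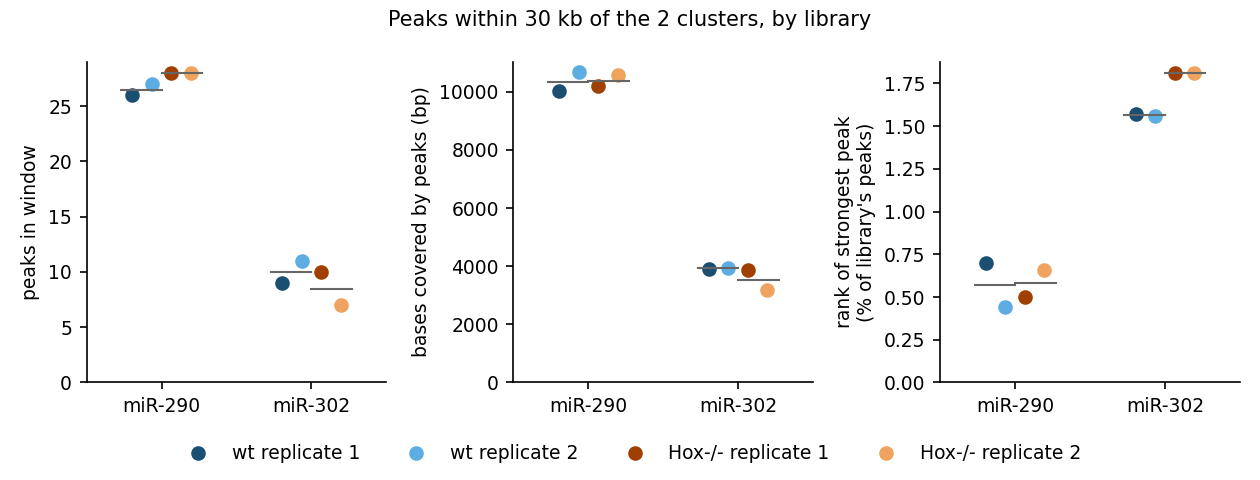
Number of peaks (left), bases covered by peaks (middle) and rank of the strongest peak as a percentage of the library's peaks (right) within 30 kb of each cluster. Points are the 4 libraries and grey lines the mean of the 2 libraries of a genotype. The miR-290 values, 26 to 28 peaks, stand above all miR-302 values, 7 to 11 peaks, in the left panel.

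The position of the peaks differed between the clusters. Placed by their summits, 16 peaks of each library in the miR-290 window lay upstream of the first microRNA gene, 2 within the cluster and 8, 9, 10 and 10 downstream. In the miR-302 window 6, 7, 7 and 3 peaks lay upstream, none within the cluster, and 3, 4, 3 and 4 lay downstream. From chr7:3191788 to chr7:3223262, a span of 31475 bp that ends just past Mir295, every library had 22 peaks in the same 17 regions. The next 9534 bp, inside Nlrp12, held no peak in any library. The 9 regions beyond that gap were weak, with no peak ranked better than 98523, 93180, 118870 and 119826 in the 4 libraries. The limits of that span were chosen after the values were seen.

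The strongest miR-290 peak by −log10 p lay far upstream of the genes. The strength of a peak is given as its rank by −log10 p within its library, 1 being the strongest, and distances are from the nearest end of the cluster, negative upstream. The region chr7:3201072-3201849 (−17.17 kb) ranked 1500 of 213705 in wt replicate 1, 956 of 216795 in wt replicate 2, 965 of 191704 in Hox-/- replicate 1 and 1321 of 200214 in Hox-/- replicate 2, so it was among the strongest 0.702% of every library. The authors' fold over background was 9.93, 10.6, 10.6 and 10.7 there. A second region, chr7:3206337-3207259 (−11.83 kb), ranked 1700, 3405, 4525 and 2502. Its 2 wt replicates differed by −1.0 on the log2 rank scale and its 2 Hox-/- replicates by 0.85, both more than the genotypes, which differed by −0.48.

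Strong and weak regions alternated upstream of miR-290. Between those described here lay weaker regions called in all 4 libraries, with median ranks from 42456 at −24.33 kb to 120610 at −14.44 kb. The region chr7:3192944-3193721 (−25.29 kb) ranked 8242 and 9062 in wt and 4860 and 6194 in Hox-/-, so it was stronger in both Hox-/- libraries than in either wt library. Ranks that do not overlap between the genotypes were found in 41.1% of all regions shared by the 4 libraries, and in 11 of the 25 near the clusters. Its shift of 0.66 on the log2 rank scale, positive for stronger in Hox-/-, compares with replicate differences of −0.14 and −0.35, and was 0.52 with ranks divided by list length. The region chr7:3211980-3212676 (−6.30 kb) ranked 12933, 9175, 12390 and 15537, so the genotypes overlapped by rank. Divided by list length the ranks, 6.05%, 4.23%, 6.46% and 7.76%, did not overlap, with a shift of −0.48 against replicate differences of 0.52 and −0.26. Closest to the genes, chr7:3213297-3213925 (−5.01 kb) ranked 25766, 30329, 29514 and 31996, and chr7:3217503-3217959 (−0.90 kb) ranked 32486, 37496, 44239 and 44463. The region at −5.01 kb likewise overlapped by rank and not by rank over list length, with a shift of −0.27 on the latter scale against replicate differences of −0.21 and −0.05. The region at −0.90 kb was weaker in both Hox-/- libraries, with a shift of −0.35 against replicate differences of −0.21 and −0.01. Downstream of Mir295, chr7:3221628-3222672 (1.31 kb) ranked 38490, 30534, 33652 and 27845.

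At the miR-290 genes themselves the peaks were weak. A peak at chr7:3218780-3219215 overlapped Mir291a in every library and ranked 133389, 113288, 95647 and 71660, with folds of 1.92, 2.11, 2.2 and 2.5. It ranked better in both Hox-/- libraries, with a shift of 0.57 against replicate differences of 0.24 and 0.42. With ranks divided by list length the shift was 0.43, less than the difference of 0.48 between the Hox-/- replicates. The same peak reached Mir292, the gene of miR-292a, in 3 libraries and stopped 6 bp short in wt replicate 1. A peak at chr7:3219394-3219821 overlapped Mir291b and ranked 122496, 130418, 108692 and 111545. Mir294 and Mir295, which encode 2 of the mature sequences with the AAGUGCU seed, overlapped no peak. The nearest peak interval lay 840, 844, 820 and 844 bp from Mir294 and 789, 789, 791 and 787 bp from Mir295.

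By −log10 p, the miR-302 cluster had its strongest peak at its own start. The region chr3:127544534-127545284 (−0.32 kb) overlapped the first bases of Gm51018 and the hairpin of Mir302b, the first microRNA of the cluster. It ranked 3347 and 3386 in the wt libraries and 3462 and 3616 in the Hox-/- libraries, within the strongest 1.81% of every library. The folds were 14.5, 14.8, 14.0 and 14.9, and the widths 742, 746, 717 and 726 bp. Although the genotypes did not overlap, the shift was −0.07 on the log2 rank scale, against replicate differences of −0.02 and −0.06, and −0.21 with ranks divided by list length, where both replicate differences were 0.00 to 2 decimals. Mir302a lay 212, 217, 237 and 228 bp from this peak in the 4 libraries and Mir367, the last gene of the cluster, 449, 454, 474 and 465 bp. In these cultures with LIF and both inhibitors, the cluster known for its rise in primed cells thus had a called peak at its start in every library.

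The promoter windows of the 2 noncoding RNA genes are shown because 1 lay wholly under a strong peak and the other almost wholly outside any. Each is 300 bases from RefSeq (GRCm38.p6), 250 before and 50 after the annotated start, with matches to any of 7 searched motifs in capitals. The motifs, on both strands, were TATAAA (core promoter element bound by TBP), ATGCAAAT (octamer), CATTGTT (Sox), TCAAGGTCA (Esrrb), CCACACCC (Klf), CACGTG (E-box) and TGATTNAT (Hox with Pbx), and no matches overlapped in these windows. The Gm51018 window (chr3:127544839-127545138, + strand) was covered in full by the strong peak in every library.
Gm51018 promoter: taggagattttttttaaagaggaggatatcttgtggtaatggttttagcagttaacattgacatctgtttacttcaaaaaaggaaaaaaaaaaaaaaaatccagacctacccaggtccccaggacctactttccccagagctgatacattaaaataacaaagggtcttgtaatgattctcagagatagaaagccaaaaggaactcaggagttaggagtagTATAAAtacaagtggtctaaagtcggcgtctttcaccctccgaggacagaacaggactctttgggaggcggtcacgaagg
It held 1 match, a TATAAA whose first base lies 30 bases before the annotated start and which 13.6% of the 32851 promoter windows in the table also hold on either strand. The summit of the strongest line of the region lay inside the window at chr3:127545002, 127545008 and 127544979 in 3 libraries, and just outside it, at 127544833, in wt replicate 2. The D7Ertd143e window (chr7:3218534-3218833, + strand) contains the Mir290a hairpin, and 15, 26, 12 and 54 of its bases lay under a peak. Unlike Gm51018, which starts before Mir302b, D7Ertd143e is annotated to start past Mir290a and Mir290b. Its window is therefore not taken as the start of the miR-290 transcript, which was not mapped here.
D7Ertd143e promoter: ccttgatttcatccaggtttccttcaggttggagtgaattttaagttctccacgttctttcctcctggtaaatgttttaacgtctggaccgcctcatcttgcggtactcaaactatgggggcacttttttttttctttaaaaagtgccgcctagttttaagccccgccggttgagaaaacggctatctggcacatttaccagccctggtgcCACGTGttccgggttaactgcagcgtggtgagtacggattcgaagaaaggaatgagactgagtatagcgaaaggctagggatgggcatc
It held no summit in any library and 1 match, an E-box 39 bases before the annotated start and outside every called peak, a motif found in 7.15% of windows. Its GC content was 47.7%, against 40.3% in the Gm51018 window and a median of 52.7% over all windows. The octamer, Sox, Esrrb, Klf and Hox with Pbx letters were in neither window and in 1.74%, 3.78%, 0.423%, 3.56% and 3.22% of all windows.

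Besides the start of the cluster, 4 regions near miR-302 were called in all 4 libraries. The strongest of them, chr3:127552848-127553816, lies at the facing ends of Larp7 and Zgrf1 and ranked 4526, 6833, 5018 and 4354, with folds of 16.4, 15.2, 15.5 and 17.5. Upstream of the genes, chr3:127529956-127530827 (−14.84 kb) ranked 15711 and 17686 in wt and 26158 and 19900 in Hox-/-, weaker in both Hox-/- libraries by −0.45 against replicate differences of −0.17 and 0.39. Inside Zgrf1, chr3:127572583-127573093 (27.03 kb) ranked 30315 and 32593 in wt and 20584 and 18707 in Hox-/-. That region was stronger in both Hox-/- libraries, with a shift of 0.68 against replicate differences of −0.10 and 0.14. The fifth, chr3:127520919-127521505 (−24.02 kb), was weak, at ranks 112610, 104833, 116651 and 96558. No other region of the window was called in all 4 libraries.

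Strength by p-value and strength by fold ordered the clusters differently. By −log10 p, the best miR-290 peak outranked the best miR-302 peak in every library. By fold, the highest value in the window was 9.93, 10.6, 11.1 and 10.7 at miR-290, ranked 30267, 27381, 21538 and 23355, and 16.4, 15.6, 17 and 17.7 at miR-302, ranked 5827, 8205, 4273 and 3674. Those miR-302 values came from different regions, the facing ends of Larp7 and Zgrf1 in wt replicate 1, −14.84 kb in wt replicate 2 and 27.03 kb, inside Zgrf1, in both Hox-/- libraries. The peak at the start of miR-302, the strongest by −log10 p, ranked 10214, 10211, 10649 and 8408 by fold. At miR-290 the highest fold was at −17.17 kb, except in Hox-/- replicate 1, where it was at −25.29 kb. The median peak by p also ranked weaker at miR-290, at 103009, 100879, 103279 and 98314, than at miR-302, at 30315, 32593, 27842 and 19900. On the log2 scale the median ranks differed by 1.90 (1.63 to 2.29, weaker at miR-290 in 4 of 4 libraries, exact sign-flip permutation p = 0.125). Ranking by summit pileup in place of −log10 p turned that direction, to −0.60 (p = 0.125 in the same exact test), and leaving out peaks at protein-coding gene ends reduced it to 0.73 (exact p = 0.5).

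The local background under the peaks moved with this difference. Each deposited fold and p-value pair was solved for the reads stacked at the summit (the pileup) and for the local background that the peak has to exceed, taking p as a Poisson tail and the fold as (pileup + 1) over (background + 1). The median background of the miR-290 peaks was 72.1, 66.6, 49.2 and 65.1, which 0.513%, 0.612%, 0.529% and 0.632% of all peaks of those libraries exceeded. At miR-302 the median was 10.8, 10.7, 6.81 and 10.7, exceeded by 48.1%, 45.6%, 49.4% and 46.7%. The highest background in the miR-290 window, 105, 99.6, 70.7 and 92.8 at chr7:3203921-3204456 (−14.44 kb), ranked 128, 146, 136 and 195 among all peaks, while the peak there had a fold of only 1.92, 1.92, 1.90 and 1.58. The summit pileup of the best miR-290 peak was 754, 798, 551 and 733, and that of the best miR-302 peak 467, 456, 314 and 431. At Mir291a the pileup of 159, 174, 132 and 216 stood on a background of 82.4, 81.9, 59.4 and 85.6.

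The raised background ended downstream of the genes. Over the 17 regions from chr7:3191788 to chr7:3223262 it ranged from 38.7 to 105 in wt replicate 1, 37.1 to 99.6 in wt replicate 2, 27.4 to 70.7 in Hox-/- replicate 1 and 38.1 to 92.8 in Hox-/- replicate 2. Past the 9534 bp without peaks it was 9.34 to 11.3, 7.02 to 10.5, 6.18 to 7.88 and 8.86 to 12.5. Those levels are near the library medians of 10.4, 9.72, 6.72 and 10.1. That the drop fell across this gap in all 4 libraries is not a separate result. Background was recovered only at peaks, and the gap was chosen after the values were seen, so where the level fell is not known. At the first region of the window, chr7:3191788-3192290, the background was still 38.7, 37.1, 27.5 and 38.1, so no upstream edge was in view. The part of the background in the lower folds of miR-290 was not tested.

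**Figure D3:**
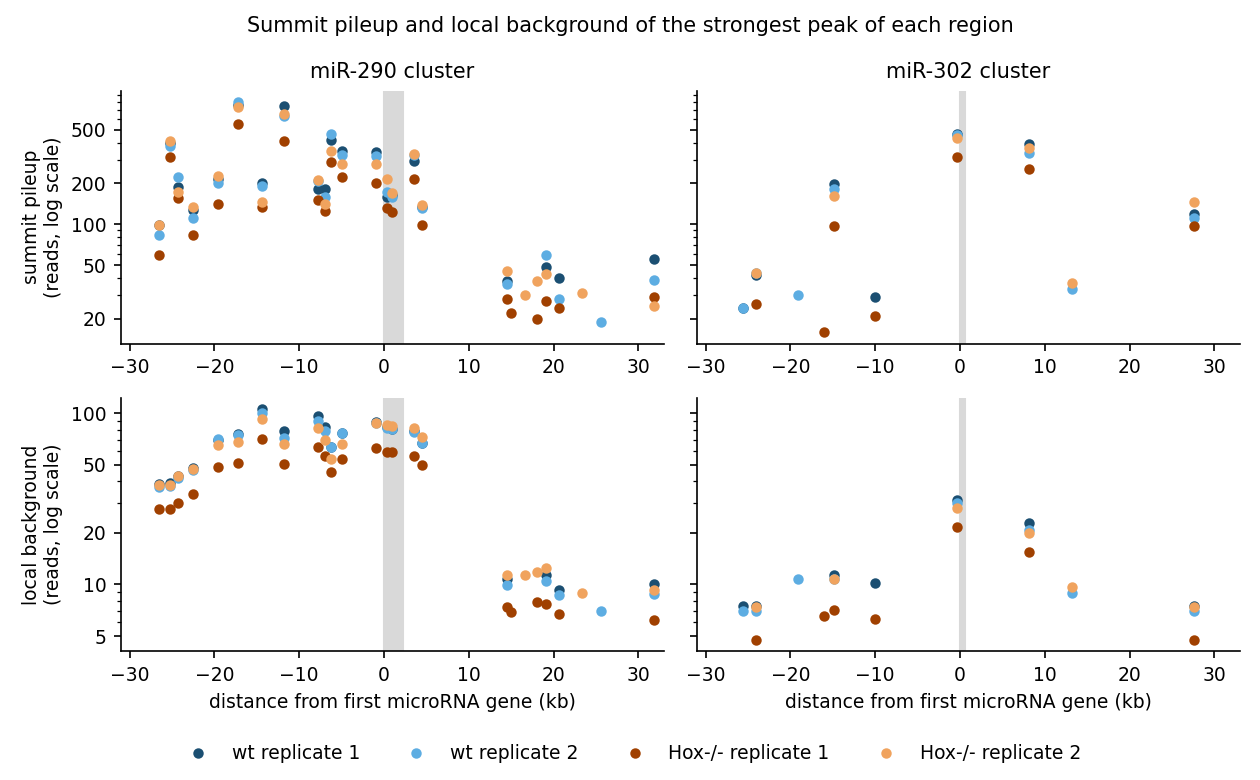
Summit pileup (top) and local background (bottom), both on a log scale, of the strongest peak of each region against distance in kb from the first microRNA gene. Points are libraries and grey bands the clusters. At miR-290 the background is at least 27.4 in every library up to just past the cluster and is at most 12.5 beyond it, and at miR-302 it is highest at the start of the cluster.

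Agreement between libraries followed peak rank, as it did in the whole set. Of 26 miR-290 regions, 20 were called in all 4 libraries (76.9%, exact Clopper-Pearson 95% interval 56.4% to 91.0%, which covers counting error only), and of 10 miR-302 regions, 5 were (50.0%, 18.7% to 81.3%). Over all merged regions the share was 59.0%. All 13 cluster regions whose best rank was within 50000 were called in all 4 libraries, as were 99.9% of 54186 such regions in the whole set. All 7 with a best rank beyond that and up to 100000 were too (91.6% in the whole set), then 5 of 8 up to 150000 (41.4%) and 0 of 8 beyond (4.58%). Best rank is taken over the libraries that called a region, so a region called in more libraries takes the best of more values. Part of this trend is therefore built in. No region missing from any library ranked better than 133151.

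Regions of 1 genotype were few and weak. In the miR-290 window 1 region, chr7:3236486-3236917 inside Nlrp12, was called in both Hox-/- libraries and in neither wt library, at ranks 184443 and 146467 with folds of 2.36 and 3.05. In the miR-302 window 1 region, chr3:127519461-127519941, was called in both wt libraries alone, at ranks 187388 and 185343 with folds of 2.96 and 3.12. Over the whole set 1.23% of regions were of the Hox-/- kind and 3.83% of the wt kind, so 1 of 36 regions of each kind is near the background. With 3 libraries the number of such regions near the clusters was 4 where wt replicate 1 or Hox-/- replicate 2 was left out, 5 where Hox-/- replicate 1 was, and 2 where wt replicate 2 was.

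No genotype difference in number or length passed an exact test, and with 2 libraries against 2 none could. The mean number of miR-290 peaks was 26.5 ± 0.707 in wt and 28.0 ± 0 in Hox-/- (SD, n = 2 each, exact two-sided permutation p = 0.333, the smallest that 2 against 2 allows being 0.33). At miR-302 it was 10.0 ± 1.41 in wt and 8.5 ± 2.12 in Hox-/- (SD, n = 2 each, exact permutation p = 0.667). Without Hox-/- replicate 2 the miR-302 difference was 0. The covered length differed by 36 bp at miR-290 (exact permutation p = 1) and by −408 bp at miR-302 (exact permutation p = 0.333), Hox-/- minus wt. The miR-302 value was −58.5 bp without Hox-/- replicate 2 and −758 bp without Hox-/- replicate 1, and the miR-290 value turned to −281 bp without wt replicate 1 and −143 bp without Hox-/- replicate 2.

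Rank shifts of shared regions were small, and their direction depended on how ranks were scaled. The median shift of the 20 shared miR-290 regions was 0.08 on the log2 rank scale, with 13 stronger in Hox-/- and 7 weaker (exact permutation p = 0.333 over libraries). For the 5 shared miR-302 regions it was 0.03, with 3 stronger and 2 weaker (exact permutation p = 0.667), and leaving out either wt library or Hox-/- replicate 2 turned it to between −0.0465 and −0.0177. Over all shared regions the median was 0.02. The lists differ in length, and with each rank divided by the number of peaks in its library the median turned to −0.05 at miR-290, with 8 regions stronger in Hox-/- and 12 weaker, and to −0.10 at miR-302, with 2 stronger and 3 weaker (exact permutation p = 0.667 for each). On that scale the median of all shared regions was −0.12. The genotype shift exceeded both replicate differences in 10 of 25 cluster regions by rank, against 28.5% of all regions shared by the 4 libraries, and in 7 of 25 by rank over list length, against 30.2%. On the latter scale the genotypes did not overlap in 15 of 25, against 43.1%. Between regions the order was not the same in every library: at miR-302 the region at −14.84 kb outranked the one at 27.03 kb in both wt libraries and was outranked by it in both Hox-/- libraries.

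**Figure D4:**
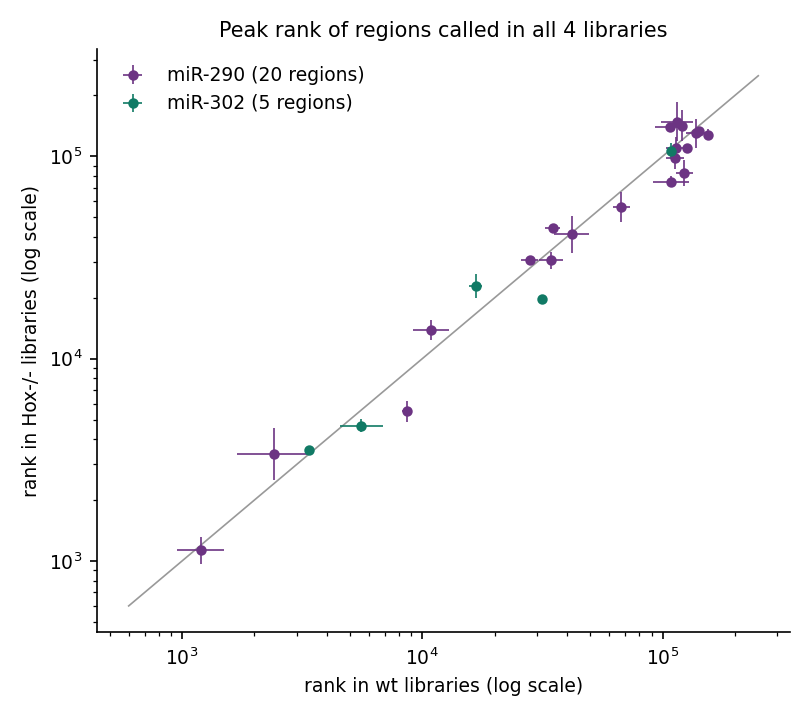
Rank of each region called in all 4 libraries in wt against Hox-/-, on log axes. Points are geometric means of 2 libraries, bars reach the single libraries and the line marks equal rank. The 20 miR-290 and 5 miR-302 regions lie near the line, the largest shift being 0.68 on the log2 scale.

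Set against other microRNA genes, the clusters took different places. Each of 1214 other microRNA genes was given 30 kb on either side, and since neighbours share windows they are not independent. Their windows are slightly shorter than the joint windows of the clusters. The miR-290 covered length was above that of 99.7% of them in wt replicate 1 and of all of them in the other libraries, where their highest values were 10539, 9486 and 10122 bp. In a window of its own, of 60082 bp, Mir291a had 9720, 10294, 9981 and 10364 bp, and 5, 2, 0 and 0 of the other genes had more. Mir294 and Mir295 in theirs were exceeded by 4, 0, 0 and 0. The miR-302 covered length was above that of 46.5%, 46.7%, 55.6% and 39.6%, near the median of 4105, 4069, 3506 and 3919 bp. By its best peak, miR-302 still outranked 81.5%, 80.0%, 80.1% and 79.8% of them, and miR-290 90.5%, 93.7%, 93.8% and 91.6%.

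**Figure D5:**
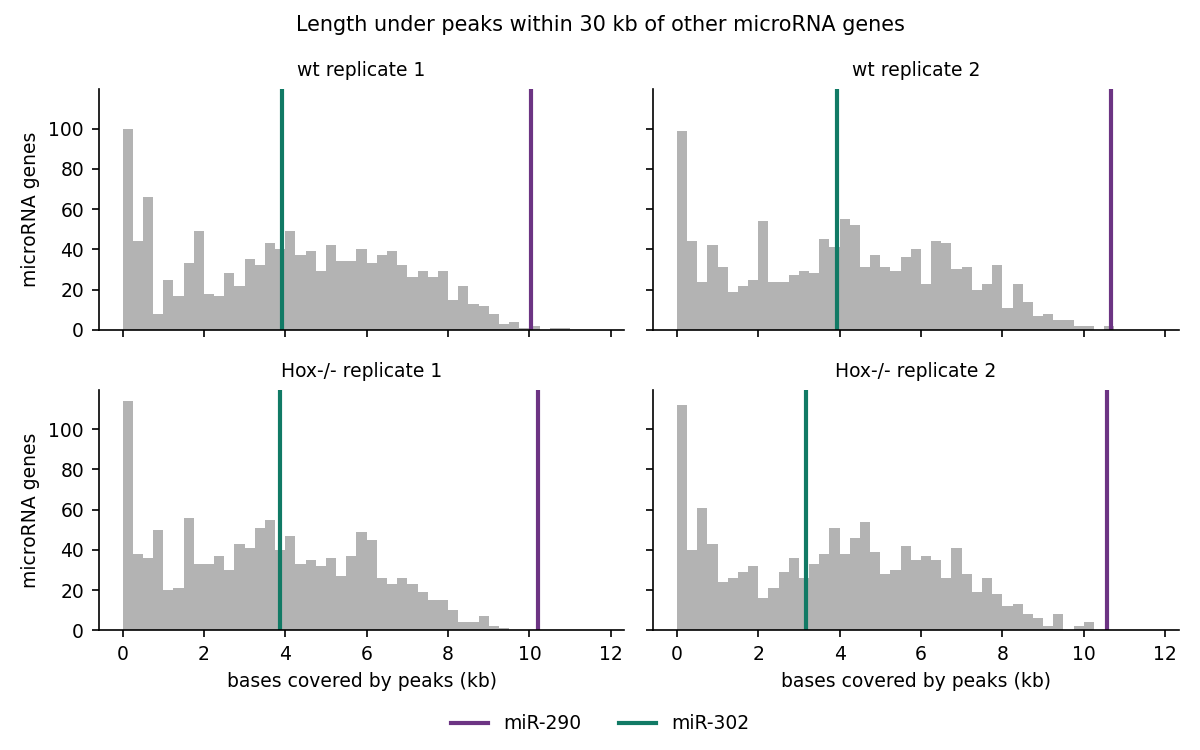
Bases covered by peaks (kb) within 30 kb of 1214 other microRNA genes in each library, as histograms of genes, with lines for miR-290 and miR-302. The miR-290 line, at 10034 to 10668 bp, lies at the upper end of every histogram and the miR-302 line, at 3167 to 3934 bp, in the middle.

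The microRNA genes most like each cluster were those with the smallest distance in the log2 covered lengths of the 4 libraries. For miR-290 these were Mir7655, Mir1192 and Mir7067, at distances of 0.205, 0.209 and 0.274, and for miR-302 Mir681, Mir7680 and Mir7092, at 0.156, 0.16 and 0.181. Among clusters used by the same cells, Mir17, Mir20a and Mir92-1 of the miR-17-92 cluster, a proliferation cluster, share a window with 3697, 3860, 3676 and 4197 bp under peaks, close to miR-302. Mir106b and Mir93, whose window holds 8351, 8325, 8043 and 7749 bp, stood nearer miR-290. Mir145a, known from smooth muscle, also had a long covered length, of 9518, 9330, 8863 and 9472 bp. At the other end Mir223, a myeloid microRNA, had no base under a peak in any library. The contrast between genotypes was of another order at the microRNA genes inside the Hox clusters. Mir10a had 6658 and 6919 bp in wt and 0 in both Hox-/- libraries, Mir10b 8371 and 8728 bp and 0, and Mir615 8331 and 7994 bp in wt and 1537 and 1433 bp in Hox-/-. Missing DNA and closed chromatin cannot be told apart there from the peak lists.

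Genes that make or answer to these microRNAs had peaks in both genotypes. A gene was counted when a peak lay within 1 kb of either end. Of all 21887 protein-coding genes, 69.1% had one in all 4 libraries, so counts of genes with a peak start from a high level. Of 12 genes of microRNA biogenesis, 11 had one in all 4 libraries and Tarbp2, a Dicer partner, in none. Drosha, the nuclear enzyme that cuts the hairpins out, and Dgcr8, its RNA-binding partner, ranked 857, 672, 1372 and 1046 and 1880, 1770, 1749 and 2041, and Dicer1, the cytoplasmic cutter, 11530, 10661, 7631 and 9547. Over the 11 genes with a peak the median best rank was 27188, 27712, 25680 and 30682. Some were weak, such as Ago4 at 108681, 114677, 110738 and 128573. Of 16 reported targets of the shared seed, 15 had a peak in all 4 and the Nodal antagonist Lefty2 in none. The cell cycle inhibitor Cdkn1a ranked 80525, 86636, 81145 and 103109, Rbl2, a retinoblastoma family member, 19815, 23724, 23596 and 18406, and the Hippo kinase Lats2 34317, 34174, 30854 and 41555.

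State markers of the cells were checked the same way, against the same 69.1% of all genes. Of 8 naive-state genes, 7 had a peak in all 4 libraries, and Nr5a2 only in wt replicate 1, at rank 207319. All 8 primed-state genes had one, but the median of their best ranks was 108996, 108534, 86147 and 107301, weaker than the 28572, 28513, 22756 and 24954 of the naive genes with a peak. The naive median covers 8 genes in wt replicate 1 and 7 in each other library. Single genes of the lists overlapped: naive Esrrb, at 99705, 107003, 107334 and 146334, ranked weaker than primed Pou3f1, at 48307, 48402, 46604 and 56805, in every library. The peak at the start of miR-302, ranked 3347 to 3616, was stronger than the best peak of each of the 8 primed-state genes in every library. All 8 embryonic stem cell markers, Pou5f1 and Sox2 among them, had peaks in all 4, as did all 4 fibroblast markers, so the presence of a peak did not tell these cell types apart. No gene of these lists had peaks in both libraries of 1 genotype alone, a pattern that 0.64% of protein-coding genes showed for wt and 0.178% for Hox-/-.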

How the data were processed

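ATAC-seq peak lists of 2 wt and 2 Hox-/- mES libraries were analysed. Per the submitters' processing notes, cutadapt 4.8, Bowtie2 2.5.0, Picard 2.18.2, bedtools 2.30.0, MACS2 2.2.9.1, deepTools 3.5.4 and the build mm10 were used. Their settings, duplicate handling and transposase shifts are not given in the sources used here. The deposited lists, 1 per library, give the authors' fold over background (a ratio), −log10 p, −log10 q and a display score per peak. These values served to describe, rank and filter the peaks of 1 list. No listed −log10 q was below 1.3, so weaker peaks are not seen.

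The number of reads is unknown. The lists held 213705 and 216795 wt and 191704 and 200214 Hox-/- peaks. Every recovered pileup was whole within 0.05, and the low end (0.1% quantile) of the recovered background was 7.46, 7.02, 4.77 and 7.36, so Hox-/- replicate 1 was the shallowest. A shallower library can list fewer weak peaks, and for that reason strength was compared by rank. List length did not follow this low end alone. Hox-/- replicate 2, at 7.36, listed fewer peaks than wt replicate 2, at 7.02.

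Coordinates are GRCm38 (mm10), counted from 1. Peaks overlapping by at least 1 bp were merged across libraries. Named regions were those 6 of each window with the best median rank and those of 1 genotype, and others named were chosen after their values were seen. Only 5 regions near miR-302 had a peak in all libraries. Genotypes were compared by exact two-sided permutation over libraries and clusters by exact sign-flip permutation. Same-numbered libraries did not deviate together (correlation 0.0036 over 122787 regions). The members and lists were chosen with earlier results of these data known. Python 3.11.15, numpy 2.4.6, pandas 2.3.3 and scipy 1.17.1 were used, and the scripts were tested on simulated data. Alternatives changed the window (10 or 100 kb), −log10 q minimum (5), peaks used (100000 strongest), overlap (50%), line merging, gene ends, ranking and libraries, and ranking by summit pileup, ranks divided by list length and windows of single genes were chosen after seeing the data.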

Additional observations from a re-analysis of the deposited data

How the results depend on the processing

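Of 118 alternative values for 11 results, 92 stayed near the reported value or kept its direction, 11 moved and 15 turned direction. The contrast of the clusters in number and covered length kept its direction under every alternative run, but its size changed. It was 7.5 peaks and 3660 bp with the 100000 strongest peaks. With a window of 10 kb it was 9.25 peaks and 2660 bp, and with 100 kb 23.5 peaks and 8970 bp. The contrast in median log2 rank turned to −0.600 with ranks by summit pileup. It was 0.203 (exact sign-flip p = 0.375) with a window of 100 kb and 4.09 with 10 kb. Genotype differences, Hox-/- minus wt, were small and turned easily. With a window of 100 kb the miR-290 values were 0 peaks, −599 bp and a rank shift of −0.0176. With −log10 q of at least 5 they were −1.5 peaks and −342 bp. At miR-302 the number differed by 0 with a window of 10 kb and by 0.5 with the 100000 strongest peaks, which gave 46 bp, and the rank shift was −0.0189 without peaks at gene ends. With ranks divided by list length the rank shifts were −0.0519 at miR-290 and −0.102 at miR-302, since the wt lists are longer. The cause of the other changes was not tested. Regions of 1 genotype numbered 0 within 10 kb, 5 within 100 kb, 0 with −log10 q of at least 5 and 1 among the 100000 strongest peaks, and within 10 kb 100% of regions were called in all 4 libraries.

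Leaving out 1 library each gave, at miR-290, 1 to 2 peaks, −281 to 353 bp and shifts of 0.0214 to 0.0769, and at miR-302 −3 to 0 peaks, −758 to −58.5 bp and −0.0465 to 0.17. It gave 17 to 18.7 peaks, 6400 to 6820 bp and 1.76 to 1.98 for miR-290 minus miR-302, 2 to 5 regions of 1 genotype and 69.4% to 76.5% shared regions. With the replicate block the differences were the same (1.5 peaks, 36 bp and 0.0839 at miR-290, −1.5 peaks, −408 bp and 0.0339 at miR-302), with exact p of 0.5 or 1, 0.5 being the smallest that 2 pairs allow.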
